A study of Homo sapiens with 34 samples.

Results

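The sites described here were 456 bins of 5 kb on the autosomes that carried a peak of an H3K9 methylation profile again and again in PC3 DM cells and rarely in COLO320 DM cells. A bin was taken when a peak overlapped it in at least 10 of the 16 PC3 DM peak lists and in at most 3 of the 18 COLO320 DM lists (hg38, with the stretch of 8q24 around MYC left out). They made up 0.135% of the 338364 bins with a peak in any list, and 17.1% of the 2664 bins that reached 10 PC3 DM lists. The other 2208 of those recurrent bins also had a peak in more than 3 COLO320 DM lists and are called shared bins below. The presence of peaks in both lines chose the member bins, so their recurrence, fold, width and local background between the lines are given as a description, without a test.

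PC3 DM is a line of prostatic adenocarcinoma cells, and COLO320 DM is a line of colorectal adenocarcinoma cells. DM stands for double minutes, the circles of extrachromosomal DNA (ecDNA) on which both lines carry the oncogene MYC. Cells of every group, controls included, were transfected with 700 ng of plasmid and collected 3 days later, and CUT&Tag, which cuts and tags chromatin where an antibody has bound, was run on 50000 nuclei with a rabbit antibody labelled anti-H3K9me, whose degree of methylation is not named. PC3 DM received ecSE1, ecSE2 or ecSE6 (3 libraries each), ecSE7 (2), the ecSEcombo combination (3) or the vector (2). COLO320 DM received ecSE1, ecSE2, ecSE3, ecSE4, ecSEcombo or the vector, 3 libraries each. Where these elements lie, which effector acted there and whether replicates were separate cultures is not stated in the labels. The lists held 10288 to 102290 peaks in PC3 DM libraries (median 26527) and 9385 to 125214 in COLO320 DM libraries (median 18271). Read totals are unknown, and the lowest local background of a library, which rises with depth, was 0.164 to 0.405 fragments in PC3 DM and 0.501 to 0.872 in COLO320 DM. With all lists cut to equal length, the rule gave 294 bins, of which 153 were among the 456. No expression values belong to the lists, so the cell types were not checked against marker genes.

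Dimethylation and trimethylation of lysine 9 of histone H3 mark chromatin that is kept silent. These forms are bound by HP1 proteins, cover satellite DNA and transposable elements, and also lie over clusters of KRAB zinc finger genes, whose repeats they keep stable. In cultured lines such domains differ with cell type and with the number of copies of a chromosome region, and both can change how often a peak is found.

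The DNA of 4 gene starts inside member bins is shown first, since they differ in whether a peak lay over the start itself. Each sequence runs 5′ to 3′ on the strand of the gene, from 250 bases before to 50 bases after the start, as given by RefSeq on GRCh38.p14. Capitals mark CG pairs, which are read on both strands alike. RIPOR2 encodes an inhibitor of RhoA. LOC124901737 is a long non-coding RNA gene and was picked after its values were seen, as the single start with recurrent peaks over it. KLHL28 encodes a kelch-like protein and ZNF583 a zinc finger protein.
RIPOR2, chr6:24877221-24877520, minus strand: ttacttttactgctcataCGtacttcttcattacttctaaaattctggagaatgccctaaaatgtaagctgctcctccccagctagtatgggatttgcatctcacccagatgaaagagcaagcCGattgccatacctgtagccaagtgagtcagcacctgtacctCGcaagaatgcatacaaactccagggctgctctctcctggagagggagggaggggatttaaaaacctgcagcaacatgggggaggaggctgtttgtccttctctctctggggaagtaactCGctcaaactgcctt
LOC124901737, chr7:121511145-121511444, minus strand: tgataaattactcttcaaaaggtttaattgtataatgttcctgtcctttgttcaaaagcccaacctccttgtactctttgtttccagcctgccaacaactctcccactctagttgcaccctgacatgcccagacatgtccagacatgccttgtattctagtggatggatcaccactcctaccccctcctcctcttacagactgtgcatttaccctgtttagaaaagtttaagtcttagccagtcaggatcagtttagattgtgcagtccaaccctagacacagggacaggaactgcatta
KLHL28, chr14:44961436-44961735, minus strand: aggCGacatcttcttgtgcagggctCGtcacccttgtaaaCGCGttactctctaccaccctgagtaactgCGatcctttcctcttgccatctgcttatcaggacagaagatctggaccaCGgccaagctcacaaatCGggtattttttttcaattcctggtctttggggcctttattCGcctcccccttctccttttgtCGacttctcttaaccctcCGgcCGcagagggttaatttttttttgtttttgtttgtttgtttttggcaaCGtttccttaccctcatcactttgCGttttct
ZNF583, chr19:56404082-56404381, plus strand: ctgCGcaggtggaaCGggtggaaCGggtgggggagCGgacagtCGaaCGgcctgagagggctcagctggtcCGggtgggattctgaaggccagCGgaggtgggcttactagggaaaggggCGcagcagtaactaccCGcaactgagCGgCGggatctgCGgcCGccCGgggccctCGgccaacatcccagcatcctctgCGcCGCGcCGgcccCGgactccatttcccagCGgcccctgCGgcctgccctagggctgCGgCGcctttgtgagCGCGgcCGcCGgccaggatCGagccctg

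Of 17 such 300-base windows, for 14 genes with an annotated start in a member bin, 12 had no PC3 DM peak over them in any list. A peak fills a small part of a 5 kb bin and can miss a window by its position alone. The matching share for shared bins or for all autosomal windows is not given here, so the count is not read as avoidance of gene starts. The window of LOC124901737 was covered in 13 PC3 DM lists and 0 COLO320 DM lists, has no CG pair and is 44.3% G or C. The window of RIPOR2 was covered in 7 PC3 DM lists and 0 COLO320 DM lists and has 4 CG pairs. This RIPOR2 start, at 24877270, is an inner one. The gene spans 24804284 to 25042168 and is read from the upper end. The windows of KLHL28, with 13 CG pairs, and ZNF583, with 30, were covered in 0 lists of either line, although their bins had a peak in 15 and 16 PC3 DM lists. In the ZNF583 bin the median summit lay 482 bp from the start shown. Among 33725 autosomal windows of this kind the median number of CG pairs was 14, and 96.0% held at least 1. Windows with few CG pairs were not all covered. Those of OR2L5 and MMP10, with 2 each, and of LINC02512, with 4, had a peak in 0 PC3 DM lists. Covered windows not shown were those of LOC105369880 (0 CG pairs, 5 PC3 DM lists), 1 start of LOC105373456 (1 CG pair, 1 list) and TOGARAM1 (17 CG pairs, 1 list). The count of CG pairs describes these letters alone and was not tested against the peaks.

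The member bins were found in a broad share of the PC3 DM libraries. A PC3 DM library had a peak in 261 to 430 of the 456 bins, with a median of 340, against 15 to 174 with a median of 29 in a COLO320 DM library. As shares these were 72.8% ± 10.1 over the 16 PC3 DM libraries and 8.17% ± 7.86 over the 18 COLO320 DM libraries (mean ± SD), and no COLO320 DM library reached the lowest PC3 DM one, a separation that the choice of bins fixes. In the shared bins the same libraries had a peak in 77.8% ± 10.4 (PC3 DM) and 71.3% ± 8.83 (COLO320 DM). The COLO320 DM library ecSE1 replicate 2, which has the longest list (125214 peaks), gave 174 of the 671 COLO320 DM occurrences, or 25.9%.

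**Figure D1:**
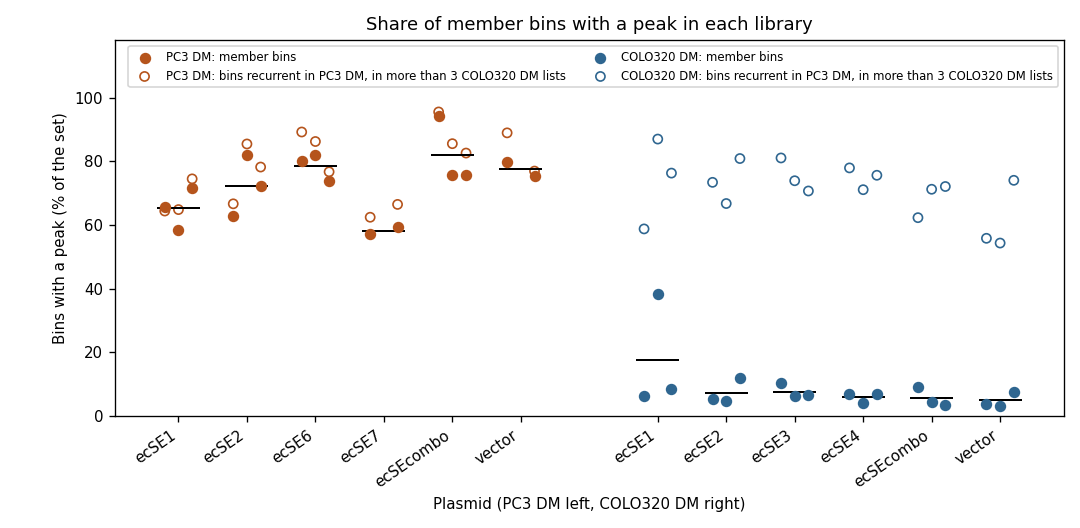
Share of bins with a peak in each library, in percent, by plasmid. Filled points are the 456 member bins, open points the shared bins, and black lines the mean of the filled points of a plasmid. PC3 DM libraries lie between 57.2% and 94.3% of member bins and COLO320 DM libraries between 3.29% and 38.2%, the highest of them ecSE1 replicate 2.

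The word "only" does not hold for every member: 109 bins had a peak in 0 COLO320 DM lists, 129 in 1, 112 in 2 and 106 in 3. On the PC3 DM side most lay near the limit, with 163 bins in 10 lists, 94 in 11, 77 in 12, 49 in 13, 28 in 14, 22 in 15 and 23 in all 16. There were 5 bins in all 16 PC3 DM lists and 0 COLO320 DM lists. The 163 members at 10 lists had a median fold of 6.48 and 15 fragments at the summit, and the 260 bins left out at 9 lists had 6.37 and 13. The 106 members at 3 COLO320 DM lists had a median fold of 6.58, and the 122 bins left out at 4 lists had 6.48. The limits therefore cut through a run of bins with near-equal values. Just inside them, the members of highest median fold were chr7:113520001-113525000 (9.14), the bin in PDK1, a kinase that restrains pyruvate dehydrogenase (8.35), and chr4:104425001-104430000 (8.29). Just outside, at 9 lists, the highest were chr8:119135001-119140000 (9.88), chr7:81855001-81860000 (9.78) and chr7:124780001-124785000 (9.54).

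The peaks in member bins had more fragments and a higher fold than the other peaks of the same PC3 DM libraries. The fold, as deposited by the authors, sets the height of a peak against its surroundings in the same library, and the whole number of fragments at the highest point was worked out from that fold and the deposited p-value. The median fold of a library was 6.12 ± 0.238 in member bins, 5.78 ± 0.201 in shared bins and 5.29 ± 0.233 in all other bins (SD over 16 PC3 DM libraries). Member peaks had 17.3 ± 3.26 fragments at the summit, against 21.5 ± 4.72 in shared bins and 7 ± 1.15 elsewhere. The order was the same in every library: member peaks were above other peaks in fold, width and fragments in 16 of 16 libraries, above shared peaks in fold in 16 of 16, and above them in width or fragments in 0 of 16. In COLO320 DM, where 15 to 174 of these bins had a peak, member peaks were above shared peaks in fold in 18 of 18 libraries and above other peaks in 14 of 18. The order in fold over shared bins was therefore found in both lines. It was not tested, since the rule chose the bins on these peaks.

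Member peaks were short against a 5 kb bin, but wider than the other peaks of the same PC3 DM libraries. Their median width was 341 ± 99.8 bp in PC3 DM libraries, against 370 ± 116 bp in shared bins and 260 ± 62.8 bp elsewhere. Relative to the shortest peak of each list, which was from 154 to 293 bp in PC3 DM, the widths were 1.59 ± 0.195 for member peaks, 1.72 ± 0.230 for shared and 1.22 ± 0.0804 for other peaks. Over bins, the median width ran from 207.5 to 1426 bp with a median of 351.5 bp, so that a peak filled a small stretch of its bin. The median summit position also moved between libraries: its SD over lists had a median of 541 bp, was below 100 bp in 13 bins and below 50 bp in 5.

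**Figure D2:**
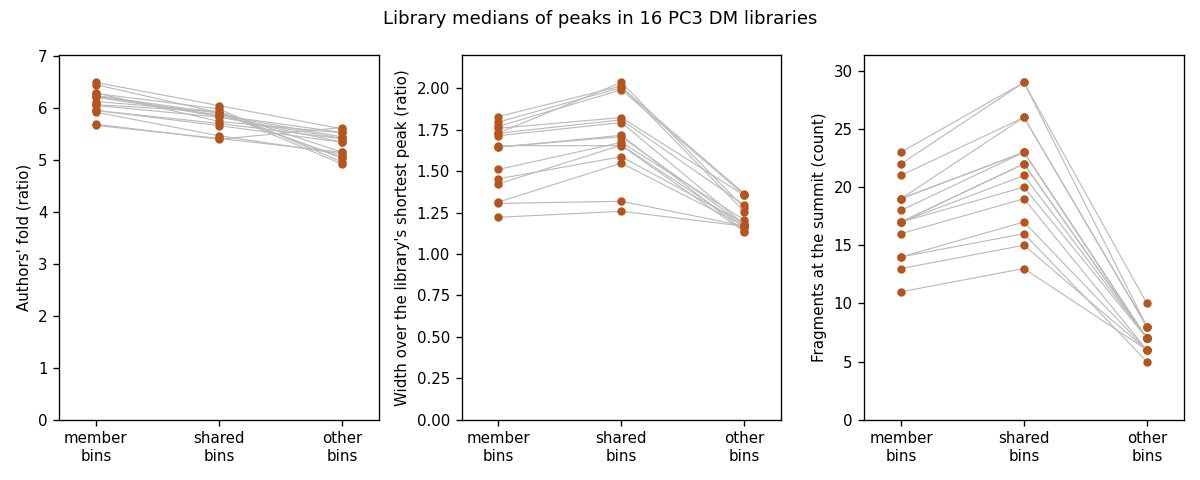
Library medians of the authors' fold, of the width over the shortest peak of the list, and of fragments at the summit, for peaks in member, shared and other bins of 16 PC3 DM libraries, joined by library. In each of the 3 panels all 16 member values lie above the other bins of the same library, and member fold lies above shared fold in 16 of 16.

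The local background under the peaks is given next, as a description. It is the number of fragments that the peak caller took as the level around a peak, here divided by the median over all autosomal peaks of that library. It was 4.49 ± 0.671 times the library median at member peaks in PC3 DM, 6.64 ± 0.950 at shared peaks and 0.895 ± 0.0841 at other peaks. In COLO320 DM the few peaks in member bins lay on 0.725 ± 0.235 times the library median, against 0.910 ± 0.0311 for other peaks of that line, and were above the other peaks in 2 of 18 libraries. The COLO320 DM peaks had a fold of 5.81 ± 0.366 and 12.2 ± 1.62 fragments. The bins were chosen for peaks that recur in PC3 DM and are few in COLO320 DM, which bears on both values. A local background rises with copy number, with the mark over a broad stretch and with depth, and these cannot be told apart in peak lists. The library median used as divisor was 0.213 to 0.915 fragments in PC3 DM and 0.720 to 2.19 in COLO320 DM. In proportion, it lay closer to the lowest background in most PC3 DM libraries than in most COLO320 DM libraries. Ratios to it are therefore not on the same scale in both lines.

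The member bins were unevenly spread over chromosomes. Chromosome 10 had the most, 64, followed by chromosomes 1 and 14 with 50 each and chromosomes 2 and 8 with 34 each, and chromosome 13 had 0. Per 1000 bins with a peak in any list, chromosome 14 had 4.06, chromosome 10 had 4.00 and chromosome 19 had 3.23, against 1.35 over all autosomes. Of the bins recurrent in PC3 DM, 36.0% were members on chromosome 10 and 31.2% on chromosome 14, against 14.7% (342 of 2326) on the other autosomes. Chromosome 19, rich in zinc finger genes, had 178 recurrent bins, of which 18 (10.1%) were members. On chromosome 13 all 25 recurrent bins also had a peak in more than 3 COLO320 DM lists.

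**Figure D3:**
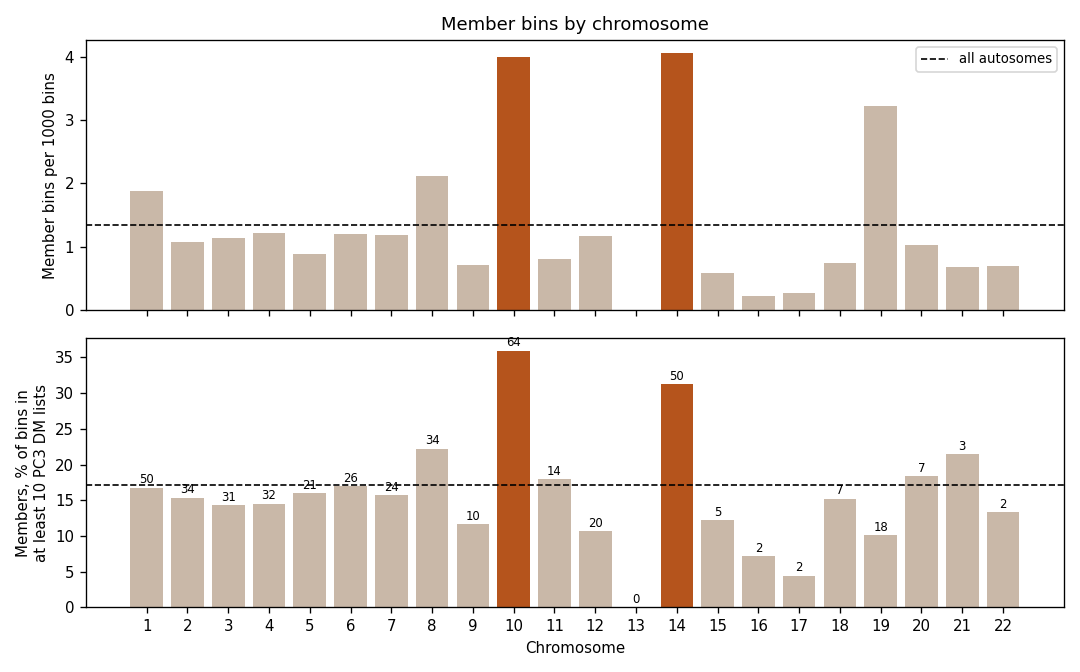
Upper panel, member bins per 1000 bins with a peak in any list, by chromosome. Lower panel, members as percent of the bins in at least 10 PC3 DM lists, with the number of members above each bar. Dashed lines give all autosomes (1.35 per 1000 and 17.1%), and chromosomes 10 and 14, in colour, stand above both lines.

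Chromosome 14 also had a raised local background in PC3 DM. The background of its peaks had a median of 1.60 times the library median in PC3 DM (from 1.23 to 2.28), against 0.941 (from 0.825 to 1.04) in COLO320 DM, and the ranges did not overlap. This difference depends on the library median as divisor, which is not on the same scale in both lines. Its share of all peaks was 4.71% in PC3 DM and 3.15% in COLO320 DM. Chromosome 10 held 4.94% of peaks in PC3 DM and 3.31% in COLO320 DM, but its background was 1.07 (from 0.955 to 1.17) in PC3 DM against 0.858 (from 0.729 to 1.00) in COLO320 DM, with overlapping ranges. Chromosome 13, without members, went the other way, with 3.34% of peaks and a background of 0.928 in PC3 DM against 7.22% and 1.21 in COLO320 DM. Across the 22 autosomes, the number of members per 1000 bins had a Spearman rho of 0.361 with the PC3 DM background, 0.512 with the PC3 DM share of peaks, 0.137 with the ratio of the peak shares in PC3 DM over COLO320 DM, and -0.0062 with the COLO320 DM background. These describe 22 chromosomes measured in the same libraries. Whether extra copies of chromosomes 10 or 14 account for part of the members was not tested, since copy number is not part of the peak lists.

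**Figure D4:**
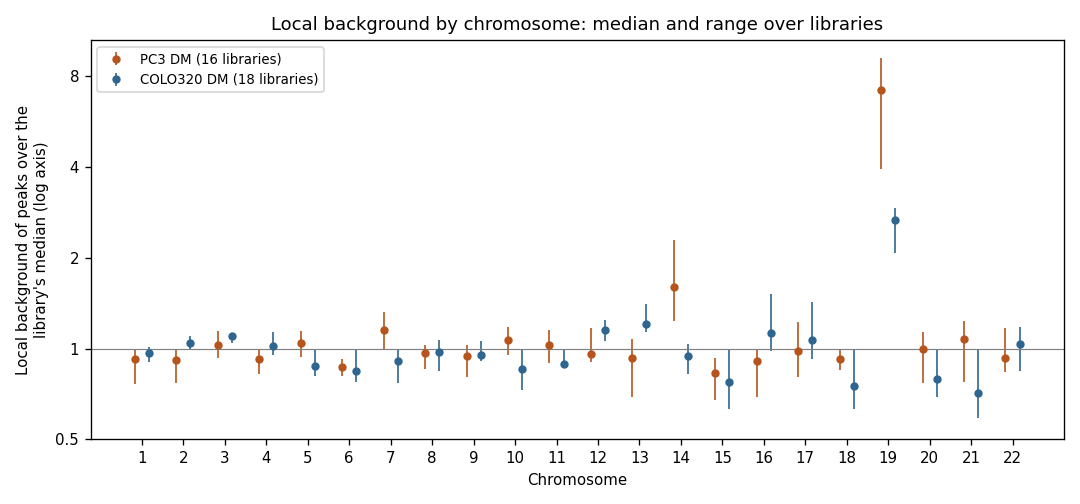
Local background of peaks over the library's median, by chromosome, on a log axis. Points are medians and lines the range over 16 PC3 DM and 18 COLO320 DM libraries. On chromosome 14 the PC3 DM range (1.23 to 2.28) lies above the COLO320 DM range (0.825 to 1.04), on chromosome 13 the PC3 DM range lies below, and on chromosome 19 it lies above.

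Joined under the rule, the members did not form broad domains. Each adjoining bin had to pass both limits, and the same count for shared bins is not given here, so this is not a trait particular to members. Joining adjoining bins gave 436 domains, of which 416 were single bins and 20 were pairs, and none was longer than 10 kb. In 18 of the 20 pairs a peak crossed the edge between the bins in at least 5 PC3 DM lists, so that a single peak was often counted in both bins. In the other 2 pairs no list had a peak across the edge: chr14:101315001-101325000, where both bins had a peak in 15 lists, and chr14:92620001-92630000 in RIN3, where both had one in 13. RIN3 encodes an activator of the small GTPase RAB5. Of the 20 pairs, 7 lay on chromosome 14. Neighbouring members on a chromosome lay a median of 1850 kb apart, and 39.1% lay within 1000 kb of the next. A neighbouring bin reached 10 PC3 DM lists beside 65 members (14.3%), and reached more than 3 COLO320 DM lists beside 72 members (15.8%).

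The densest stretches lay on chromosomes 10 and 14. Among windows of 1 Mb, chr10:62000001-63000000, chr10:78000001-79000000 and chr14:101000001-102000000 had 6 members each, and chr14:44000001-45000000 had 5. Another 5 windows had 4 members, of which 2 lay on chromosome 14 and 1 each on chromosomes 1, 8 and 10. In all, 336 windows held a member and 27 held at least 3. In the window chr14:44000001-45000000 the local background was 6.32 times the library median in PC3 DM (from 4.93 to 11.5) and 1.07 in COLO320 DM (from 0.841 to 1.59), and a PC3 DM library had 23 to 153 peaks there against 5 to 67 in COLO320 DM. In the window chr10:62000001-63000000 it was 3.30 in PC3 DM (from 1.65 to 8.58) and 0.801 in COLO320 DM (from 0.348 to 2.5). These windows were chosen for their members, and the values depend on the library median as divisor, so the higher background in PC3 DM is a description.

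The chromosome 14 window with 5 members holds the bin that both KLHL28 and TOGARAM1 overlap, in which their starts lie a short way apart. TOGARAM1 encodes a microtubule-binding protein of cilia. That bin, chr14:44960001-44965000, had a peak in 15 PC3 DM lists and 1 COLO320 DM list, with a median fold of 5.61. Of the other 4 members there, 2 overlapped the long non-coding RNA gene LINC02307 and 2, adjoining, overlapped LINC02277, with median widths of 941 and 1084 bp. In the window chr10:62000001-63000000 the member in 16 PC3 DM lists was chr10:62685001-62690000, with a median fold of 7.43 and no gene over it, and ZNF365 held 1 member.

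The imprinted DLK1 to DIO3 stretch at 14q32 held 8 members in 520 kb, chr14:100805001-101325000. In this stretch maternal copies express non-coding RNAs, among them MEG3, MEG8 and a large array of miRNAs and snoRNAs, and paternal copies express the protein-coding genes DLK1, RTL1 and DIO3. Between the end of DLK1 (100738224) and the start of DIO3 (101561495), 106 bins had a peak in any list. Of these, 8 were recurrent in PC3 DM, all 8 were members, and the most COLO320 DM lists in any of the 106 was 3. The member bins at chr14:100805001-100815000, between DLK1 and MEG3, had a peak in 15 and 15 PC3 DM lists against 0 and 1 COLO320 DM lists. The other 6 lay beyond MEG9, in 12 to 16 PC3 DM lists against 0 to 3.

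The genes of the imprinted stretch themselves were rarely marked. The bins of MEG3 had a peak in at most 4 PC3 DM lists and 2 COLO320 DM lists, those of MEG8 in at most 6 and 1, those of RTL1 in at most 4 and 0, and those of DLK1 and DIO3 in at most 1 and 0. The 8 members had the local background high on the DLK1 side, at 29.2 and 28.8 times the library median with folds of 3.72 and 4.00, and lower at chr14:101305001-101310000, at 3.47 with a fold of 8.03. The span of the 8 members holds 111 annotated genes, of which 53 are miRNAs and 47 snoRNAs, and 1 of them, MIR2392, lies in a member bin (15 PC3 DM lists and 1 COLO320 DM list). Its mature product from RefSeq (GRCh38.p14, chr14:100814551-100814570, plus strand) is shown as the miRNA of the stretch that a member holds, with the seed, bases 2 to 8, in capitals.
hsa-miR-2392: uAGGAUGGgggugagaggug

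**Figure D5:**
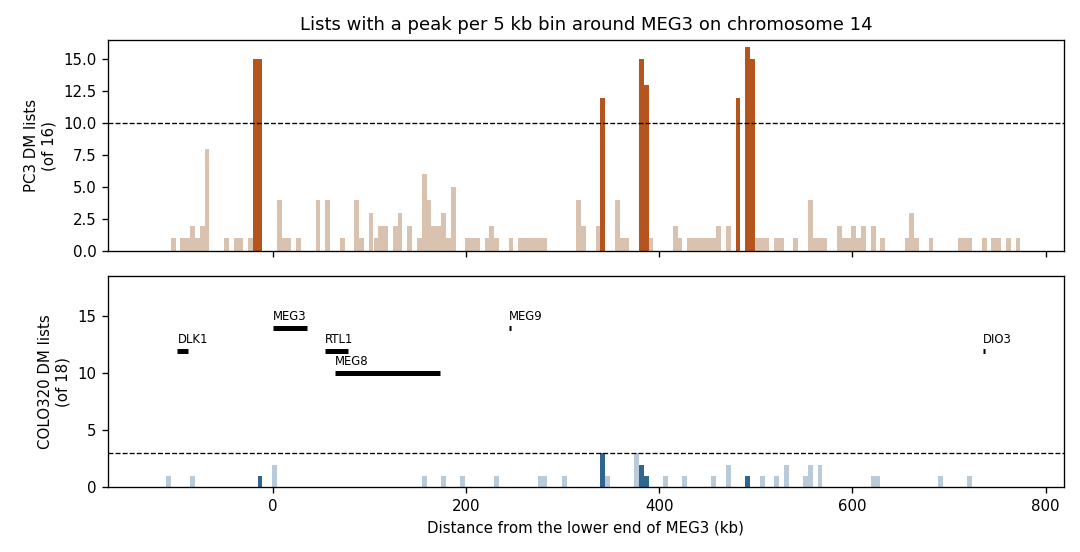
Number of peak lists with a peak in each 5 kb bin around MEG3, PC3 DM above and COLO320 DM below, by distance from the lower end of MEG3 in kb; dark bars are the 8 members, dashed lines the limits of 10 and 3 lists, and black bars genes. The dark bars stand at 12 to 16 PC3 DM lists and lie outside the gene bars, and all COLO320 DM bars are at 3 or lower.

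Single bins with the widest separation lay in or near a few genes. A peak in KATNBL1, which encodes a regulator of the microtubule-severing enzyme katanin, was found in 16 PC3 DM lists and 0 COLO320 DM lists. It was counted in both chr15:34150001-34155000 and chr15:34155001-34160000 because its median summit, at 34154994, lay on their edge. Its fold was from 5.43 to 13.7 with a median of 8.28, its width from 205 to 1087 bp with a median of 643 bp, and its summit had 39 to 106 fragments with a median of 63.5. The summit varied by an SD of 27.9 bp between the 16 libraries, and in every one the local background was high, from 12.6 to 22.9 times the library median. A bin adjoining this pair had a peak in 5 COLO320 DM lists. KATNBL1 had 3 bins recurrent in PC3 DM, of which 2 were members.

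The other bins in 16 PC3 DM and 0 COLO320 DM lists were spread over 3 chromosomes. The bin chr10:76035001-76040000 lies in LRMDA, a gene needed for the differentiation of melanocytes, and its peaks had a median fold of 7.56 and a median width of 855.5 bp. LRMDA had 8 bins recurrent in PC3 DM, of which 2 were members and the rest shared bins. The bin chr6:67545001-67550000 holds the U6 pseudogene RNU6-280P, lies 1085 kb from the nearest protein-coding gene, ADGRB3, and adjoins a bin with a peak in 11 COLO320 DM lists. The bin chr17:77875001-77880000 overlaps LINC01973 and lies 77.6 kb from TNRC6C, a partner of the miRNA machinery. Its peaks had a median fold of 5.92 and a median width of 516 bp.

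The next bins had 15 more PC3 DM than COLO320 DM lists, and of those tied at this difference the ones with the highest median fold are given. In 15 and 0 lists, the bin chr8:6645001-6650000 overlaps the end of MCPH1, which encodes microcephalin, a protein of chromosome condensation and DNA damage signalling. The gene ends inside the bin, at 6648508, and the median summit lay beyond it, at 6649318. The peaks of this bin had a fold of 5.02 to 10.4 with a median of 8.32. Also in 15 and 0 lists, the bin chr17:78950001-78955000 lies 16.3 kb from LGALS3BP, which encodes a secreted galectin-binding protein, with a median fold of 7.01. Likewise in 15 and 0, the bin chr10:52665001-52670000 overlaps LOC105378305, which is not annotated as protein-coding. It lies 95.4 kb from MBL2, the mannose-binding lectin gene, with a median fold of 6.54. Another 2, chr14:101315001-101320000 and chr14:101320001-101325000, belong to the 14q32 stretch, in 16 and 15 PC3 DM lists and 1 and 0 COLO320 DM lists.

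A few members, picked after their values were seen, had a summit at nearly the same base in every list. The bin chr10:125885001-125890000 in DHX32, a gene of the DEAH-box helicase family, had a peak in 13 PC3 DM lists and 1 COLO320 DM list. Its summits varied by an SD of 8.78 bp around 125886248, its fold was from 8.83 to 15.3 with a median of 11.5, the highest median of the 456 bins, and the background was 1.15 times the library median. Its 1 COLO320 DM peak was in ecSE1 replicate 2, with a fold of 5.81. The bin chr7:48535001-48540000 in ABCA13, which encodes a membrane transporter of the ABC family, had a median fold of 11.4 in 11 PC3 DM lists, and its summits varied by 37.5 bp. Unlike KATNBL1, the DHX32 peak stood on a background near the library median.

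The share of members that overlapped a protein-coding gene was near that of shared bins and lower than that of all bins with a peak, a difference that was not tested. Of the 456, 144 (31.6%) overlapped a protein-coding gene, 92 (20.2%) a long non-coding RNA gene and no protein-coding one, and 206 (45.2%) no gene. For shared bins the shares were 34.1%, 15.5% and 46.6%, and for all bins with a peak in any list 42.2%, 15.7% and 39.8%. In total 137 of 19126 autosomal protein-coding genes (0.716%) held a member bin. A gene is said to hold a bin that it overlaps, so the peak itself may lie beside the gene. They were long, with a median length of 164 kb against 24.5 kb for all, and 2.77% of genes of 100 kb or more held a member against 0.302% of shorter ones. A longer gene spans more bins, and the share was not corrected for this.

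There were 14 protein-coding genes with 2 member bins, and no protein-coding gene had more. In KATNBL1, ZNF583, COL5A2, RIN3, CCDC91, LRP1B and WNT9A the bins adjoined. WNT9A, a secreted Wnt ligand, had them in 10 and 10 PC3 DM lists against 0 and 2 COLO320 DM lists. COL5A2, which encodes a chain of type V collagen, had them in 16 and 11 against 2 and 0, with folds of 6.51 and 7.02. ZNF583 had them in 16 and 15 against 2 and 2, with widths of 662 and 666 bp and a background 18.2 and 17.7 times the library median. In other genes they lay apart. CCNY, which encodes cyclin Y, had them in 12 and 16 against 1 and 3. MDGA2, which encodes a neuronal adhesion protein, had them in 12 and 10 against 0 and 0, with folds of 8.30 and 6.77. Some of the 14 also held shared bins: CCDC91 had 5 bins recurrent in PC3 DM and CCNY had 3. Genes not annotated as protein-coding were left out of this count. Among them, LOC105378305 overlapped members at chr10:52585001-52590000, chr10:52665001-52670000 and chr10:52690001-52695000.

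Zinc finger genes are a known target of H3K9 trimethylation. Of 505 autosomal ZNF genes, 10 (1.98%) held a member, against 0.716% of all protein-coding genes, and 176 (34.9%) held a bin recurrent in PC3 DM, against 3.64% of all. Beside ZNF583 they included ZNF469, with a peak in 16 PC3 DM lists and 1 COLO320 DM list and a fold of 5.44, and ZNF501, in 13 and 1 with a fold of 3.68 on a background 45.6 times the library median, the highest of all members. The median summit of the ZNF501 bin lay outside that gene, 1027 bp before its start. The recurrent bins of the remaining ZNF genes were all shared bins. Of 391 olfactory receptor genes, OR2L13, OR2L5 and OR14A2 on chromosome 1 held a member (0.767%), near the share of all protein-coding genes. The bin of OR2L5 is also a bin of OR2L13, and its median summit lay 3308 bp before the OR2L5 start.

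Neural genes, many of them very long, held a few members. Of 30 genes grouped here under synaptic adhesion 3 (10%) held one, CTNNA3, CADM2 and CSMD3, and 9 (30%) held a bin recurrent in PC3 DM. The share depends on which genes are listed: CTNNA3 was included, and MDGA2, with 2 member bins, was not. Of 27 neuronal channel and receptor genes 2 (7.41%) held one, KCNMA1 and GRM7. The share was 0.716% over all protein-coding genes and 2.77% over those of 100 kb or more. CTNNA3, which encodes a cell adhesion protein of the alpha-catenin family, had member bins in 16 and 10 PC3 DM lists against 3 and 1 COLO320 DM lists. It had 9 bins recurrent in PC3 DM, of which 2 were members and the rest shared bins. KCNMA1, the pore of the large-conductance calcium-activated potassium channel, had bins in 10 and 12 against 1 and 0, with folds of 6.48 and 7.89. GRM7, a metabotropic glutamate receptor, had 1 in 12 against 0, with a fold of 4.93. The median lengths of these groups were 897 and 467 kb, so a count per gene is raised by length.

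Apart from a list picked on these same libraries, given last, the other groups held at most 1 member each. That is too few to read against the 0.716% of all protein-coding genes. The 18 intestinal, 15 prostate and 14 mesenchymal genes on the autosomes and the 53 clustered protocadherins held 0 members, and also 0 bins recurrent in PC3 DM. Of 13 genes of the p53 pathway and stress kinases, MDM4, an inhibitor of p53, held a bin in 14 PC3 DM lists and 0 COLO320 DM lists, with a fold of 7.17. Of 21 genes that write, read or erase H3K9 methylation, KDM4B, a demethylase of that residue, held a bin in 10 and 0 lists, with a fold of 7.55. A list of 12 genes that had been singled out earlier in these libraries as marked more often in PC3 DM held a member in 5: KLHL28, MDM4, PIP4P2, USP54 and MCPH1. That list was picked on the same libraries and is not independent evidence.

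The rule counted peaks over all 16 PC3 DM lists without regard to plasmid, and so bounds what a comparison within PC3 DM can show for the members. The perturbed libraries had a peak in 72.2% ± 10.6 of the members (SD, n = 14) and the vector libraries in 77.5% ± 3.26 (SD, n = 2). By plasmid, the number of members with a peak was 299, 267 and 327 with ecSE1, 286, 373 and 330 with ecSE2, 365, 373 and 337 with ecSE6, 261 and 270 with ecSE7, 430, 345 and 345 with ecSEcombo, and 364 and 343 with the vector. Both ecSE7 libraries and all 3 ecSE1 libraries lay below the vector libraries, and the other plasmids overlapped them. With 2 vector libraries this order was not tested. In shared bins ecSE7 and ecSE1 libraries were also low, as the plot of shares by library shows. In both PC3 DM vector lists 269 members had a peak, in 1 of them 169 and in neither 18.

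The presence of a peak in each bin was compared between PC3 DM groups with two-sided Fisher's exact tests and Benjamini-Hochberg adjustment over 120647 bins, of which 411 were members. At an adjusted p below 0.05, 0 bins (0%) and 0 members were called in each of the 6 comparisons. The design could not give another outcome for a few bins: the smallest p was 0.00179 for 3 libraries against 13 and 0.00833 for 14 against 2, and 4309 or 20108 bins would have had to reach it. Without adjustment, at p below 0.05 in the same Fisher's exact tests, ecSE1 had 16 members (3.89%), against 2.05% of all bins and 6.17% of shared bins. For ecSE2 these were 11 (2.68%), against 1.54% and 2.23%. For ecSE6 they were 2 (0.487%), against 0.812% and 0.629%, for ecSE7 1 (0.243%), against 0.307% and 1.54%, and for ecSEcombo 0 against 2.74% and 0.286%. For all perturbed libraries against the vector it was 1 (0.243%), against 0.767% and 0.114%.

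The members below that unadjusted limit were all less often marked with the single plasmid than in the other PC3 DM libraries. Since a member has a peak in at least 10 lists, the opposite direction could not pass: a peak in all 3 libraries of a plasmid and in 7 of the other 13 gives p = 0.25 (Fisher's exact test). The lowest value was that of chr3:48615001-48620000, with a peak in 0 of 3 ecSE1 libraries against 13 of 13 others (Fisher's exact test, p = 0.00179, Benjamini-Hochberg adjusted p = 1). The bin in NOTCH3, a receptor of the Notch pathway, had a peak in 0 of 3 ecSE1 libraries against 11 of 13 others (Fisher's exact test, p = 0.0179, Benjamini-Hochberg adjusted p = 1). With the vector as the other side, chr18:8530001-8535000 had a peak in 13 of 14 perturbed libraries against 0 of 2 vector libraries (Fisher's exact test, p = 0.025, Benjamini-Hochberg adjusted p = 1).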

How the data were processed

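The data were 34 peak lists on hg38, 1 per library, from 16 PC3 DM and 18 COLO320 DM libraries. The submitters' processing notes name MACS2 2.2.7.1, Bowtie2 2.3.5, bedtools, SAMtools and Trim Galore 0.6.6 but not what each did. The list names state an FDR of 0.001 and that blacklisted regions were taken out. Controls and the handling of duplicates are not given in the sources used here. For each peak the authors deposited a display score (not used), a fold, which is a ratio to the local background, and its significance as -log10 p and -log10 q, all of them values of that peak alone.

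Local background and summit fragments were solved from fold and -log10 p under the Poisson law, within 0.0005, for 100% of peaks, and the solution was tested on simulated peaks. Widths came from starts and ends. Any overlap of 1 bp counted as a peak in a bin, and bins began at position 0. Groups and replicate numbers came from sample titles, and since separate cultures are not stated, the p-values speak of the spread among these libraries alone, and that spread may be technical.

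Presence per bin was compared within PC3 DM with two-sided Fisher's exact tests on bins in which 2 or more libraries had a peak and 2 or more had none, adjusted by Benjamini-Hochberg over all such bins. The comparisons share libraries and are not independent. Genes, gene starts and the miRNA came from RefSeq on GRCh38.p14, matched by position. That table has no exons, so no exon, intron or UTR is assigned. Named items followed fixed ranks: 10 bins by the difference in lists, ties by median fold, 10 domains, and the protein-coding genes with the most member bins. The others were 5 windows of 1 Mb with ties kept, 3 bins on each side of the limits, and up to 2 genes per group of 11 groups. The members, lists and ranks were chosen with earlier results of these data known. Alternatives were a -log10 q of at least 5, equal list lengths, 500 bp of overlap, 10 kb bins, stricter limits, other bin filters, pooling with the combination, replicate blocks and leaving out each library. After seeing the data 3 more were added, leaving out the 2 lists with over 100000 peaks, a limit on neighbouring bins, and vector libraries alone. The software was Python 3.11.15 with pandas 2.3.3, numpy 2.4.6, matplotlib 3.10.9 and scipy 1.17.1.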

Additional observations from a re-analysis of the deposited data

How the results depend on the processing

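With lists cut to equal length the rule gave 294 bins in 275 domains, 153 of them among the 456, and with 500 bp of overlap it gave 45 bins in 44 domains, 15 of them among the 456, with a fold of 5.62 and a width of 504 bp. With the rule as stated, the median over PC3 DM libraries was a fold of 6.17 and a width of 347 bp. The cause of the difference under equal length was not tested; the overlap setting by its construction leaves out bins that a short peak touches. Stricter limits keep a subset: 109 bins in 107 domains with 0 COLO320 DM lists, 122 in 115 with at least 13 PC3 DM lists, and 228 in both PC3 DM vector lists and no COLO320 DM vector list. Leaving out each library in turn gave 306 to 530 bins in 291 to 507 domains, the lowest without PC3 DM ecSEcombo replicate 1 and the highest without COLO320 DM ecSE1 replicate 2, with folds of 6.09 to 6.26, widths of 338 to 360 bp and 29.6% to 33.1% of bins in protein-coding genes. The tests within PC3 DM (Fisher's exact test, Benjamini-Hochberg) called 0 bins in every alternative run, and at the number of bins tested they could not have called a few, so this says nothing about stability. Of 485 values in all, 17 were those reported, 457 kept within the spread or within 1.5 times the count, and 11 moved beyond it. The 457 include the counts of 0 from these tests, and a change from 456 to 306 bins also passed as kept. The tally is therefore no measure of stability.

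A replicate block on the numbers in the titles also called 0 bins, and had 10 members at unadjusted p below 0.05 for ecSE1 and 10 for ecSE2. Deviations of same-numbered libraries of different plasmids correlated at -0.0214 to 0.0229, and those of libraries with different numbers at -0.0229 to 0.0307. By this measure no pairing by number was seen, and whether same-numbered libraries shared a batch or culture was not tested. Depth is unknown, and a bin without a peak in a list is not shown to lack the mark.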

Other observations

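On the X chromosome, which the rule leaves out, 18 of 21177 bins with a peak in any list reached 10 PC3 DM lists, and 3 of these had a peak in at most 3 COLO320 DM lists.

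Of the protein-coding genes with 1 member bin, GULP1, which encodes an adaptor for the uptake of dying cells, held chr2:188295001-188300000, with a peak in 14 PC3 DM lists and 0 COLO320 DM lists and a fold of 4.28 to 11.6 with a median of 8.38. The same bin contains MIR561. Its mature products from RefSeq (GRCh38.p14, plus strand, chr2:188297517-188297538 and chr2:188297552-188297573) are shown with the seed, bases 2 to 8, in capitals, since it and MIR2392 are the miRNAs that members hold. The 3 seeds differ from each other.
hsa-miR-561-5p: aUCAAGGAucuuaaacuuugcc
hsa-miR-561-3p: cAAAGUUUaagauccuugaagu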
